A study of Mus musculus with 27 samples.

Results

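At 14 weeks of age, RNA of cardiac fibroblasts sorted for PDGFRα was compared with RNA of whole heart in C57Bl/6 mice, over all genes. The comparison used 5 of the 27 RNA-Seq samples of the study, 2 of fibroblasts (replicates 4 and 6) and 3 of whole heart (replicates 1, 2 and 3), chosen by their labelled tissue and age. Of 22855 genes counted in both tissues, 16985 had enough counts to be tested. The study sampled the same 2 tissues at 5 ages between birth and 1.5 years to follow fibroblast gene expression with age. No treatment or transgene was named for any of the 5 samples. The design text of the series mentions an infarct, which neither the labels nor the study's methods give for these samples. The fibroblasts were released from ventricles, with atria and valves removed, by enzyme digestion at 37 °C and collected by flow cytometry on an antibody to PDGFRα, whereas heart RNA was taken from tissue directly. Cell type and isolation can therefore not be told apart in any difference between the groups. The study's methods describe separate animals, and fibroblast sets from different hearts, at each age, but 1 fibroblast set more than the 2 analysed here. The study's results section states that the hearts sequenced were those that gave the fibroblasts, so fibroblast and heart samples may share animals. No label ties a sample to an animal, so the tests at 14 weeks left any pairing out. Each p-value of the main gene tests sets a difference against the spread between samples. That spread was estimated from these 5 samples at 14 weeks, and from all 27 for differences between ages. It covers variation between animals only as far as the samples are separate animals.

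PDGFRα is a cell surface receptor for platelet-derived growth factors and marks most resident fibroblasts of the heart. Fibroblasts lie between the muscle cells and make the collagens, proteoglycans and glycoproteins of the interstitial matrix, as well as the enzymes that fold, crosslink and cut them. Whole heart RNA comes mostly from cardiomyocytes, which are packed with sarcomeres and mitochondria and burn fatty acids. Whole heart also holds fibroblasts, endothelial cells, pericytes, smooth muscle cells and macrophages, so a ratio of sorted cells to heart compares fibroblasts with a mixture that contains them.

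The 5 libraries held 46091271 to 68723085 counts. Pearson's r of log2 levels over genes, which are not independent replicates, was 0.947 between the fibroblast samples, 0.924 to 0.940 among the hearts and 0.697 to 0.721 between tissues. Genes of the mitochondrial genome took 3.84% and 2.98% of the counts in fibroblasts and 29.6%, 34.5% and 27.7% in heart. Levels below are CPM, counts scaled to a common library size, adjusted by TMM, a normalization that assumes most genes do not differ, and are given in the order fibroblast replicates 4 and 6, then heart replicates 1, 2 and 3.

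The labels held up against the markers of the cell types. Pdgfra (chr5:75152292-75198215, plus strand, GRCm38), the gene of the sorting antigen, measured 904 and 1051 CPM in the fibroblasts and 48.9, 32.8 and 42.3 CPM in the hearts. Both fibroblast samples stood far above every heart (log2 fold change 4.56 ± 0.18 (SE), adjusted p = 5.75e-07, edgeR quasi-likelihood test with Benjamini-Hochberg adjustment, as for every adjusted p here). Col1a1 (chr11:94936224-94953042, plus strand), a chain of type I collagen, measured 3259 and 3475 CPM against 107, 82.8 and 119 CPM. Myh6 (chr14:54941921-54966927, minus strand), the main cardiac myosin heavy chain of the adult mouse, measured 32.3 and 25.7 CPM in fibroblasts and 22178, 24658 and 23576 CPM in heart (log2 fold change -9.66 ± 0.18 (SE), adjusted p = 5.69e-08). The sorted cells thus held little, but not zero, RNA of this muscle gene. All 12 fibroblast markers were higher in fibroblasts, with a median log2 fold change of 4.17, and all 14 cardiomyocyte markers were lower, with a median of -9.77. Over all genes tested, 27.4% were higher, 29.0% were lower and the median was 0.0027. The smallest marker rise was that of Thy1, a surface antigen also found on other cells, at 49.5 and 56.4 CPM in fibroblasts and 13.2, 12.9 and 11.6 CPM in heart (log2 fold change 2.08 ± 0.14 (SE), adjusted p = 1e-05).

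**Figure D1:**
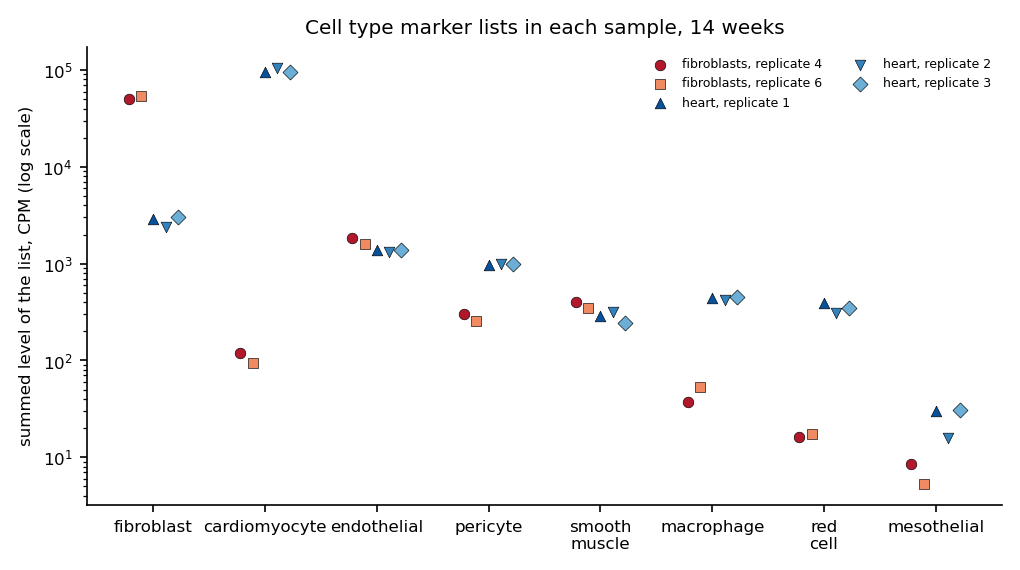
Summed CPM of 8 marker lists (log scale) in each of the 5 samples, with circles and squares for fibroblasts and triangles and diamonds for whole heart. Fibroblast markers summed to 49982 and 53838 CPM in fibroblasts against 2908, 2405 and 3009 CPM in heart, cardiomyocyte markers to 119.8 and 94.7 CPM against 96078, 105384 and 96089 CPM, and endothelial markers lay close together in both tissues on this scale.

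Markers of other cells were present in the sort to different degrees. The 12 endothelial markers summed to 1840 and 1579 CPM in fibroblasts and 1384, 1331 and 1392 CPM in heart, and the 7 smooth muscle markers to 404 and 350.3 CPM against 287, 318 and 244 CPM. Pericyte markers came to 306 and 253 CPM in fibroblasts and 969, 998 and 995 CPM in heart, and macrophage markers to 37.2 and 53.1 CPM against 444, 421 and 456 CPM. On this scale the endothelial sums differed little between the tissues, whereas macrophage sums were far lower in the sorted cells. As a share of all counts, without TMM, endothelial markers were higher in both sorted samples than in any heart, as given with these genes below. In bulk RNA, fewer cells of a type and less RNA per cell cannot be told apart. The part of these other cells in the gene differences below was not tested, and their values stand beside the genes they share.

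Of the 16985 genes tested, 9587 (56.4%) differed between fibroblasts and heart at an adjusted p under 0.05. Of these, 4654 were higher in fibroblasts and 4933 were lower. A difference of at least 2-fold was reached by 3457 higher genes (20.4% of those tested) and 3899 lower genes (23.0%), and one of at least 16-fold by 804 (4.73%) and 1235 (7.27%). With TMM, differences of at least 16-fold were thus more often losses than gains. They were not counted with other scalings. Among the lower genes, 465 had no more than 3 counts in either fibroblast sample, and among the higher genes 452 had no more than 3 counts in any heart. With scaling by library size alone, which leaves the large mitochondrial share of heart in the total, the median of all genes rose by 0.78 on the log2 scale and the calls split into 7112 higher and 3157 lower, or 69.3% higher instead of 48.5%. Genes that lie below 0 by less than about that distance therefore have a direction that depends on the scaling. For genes near 0 on either side, whether they pass can depend on it too.

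**Figure D2:**
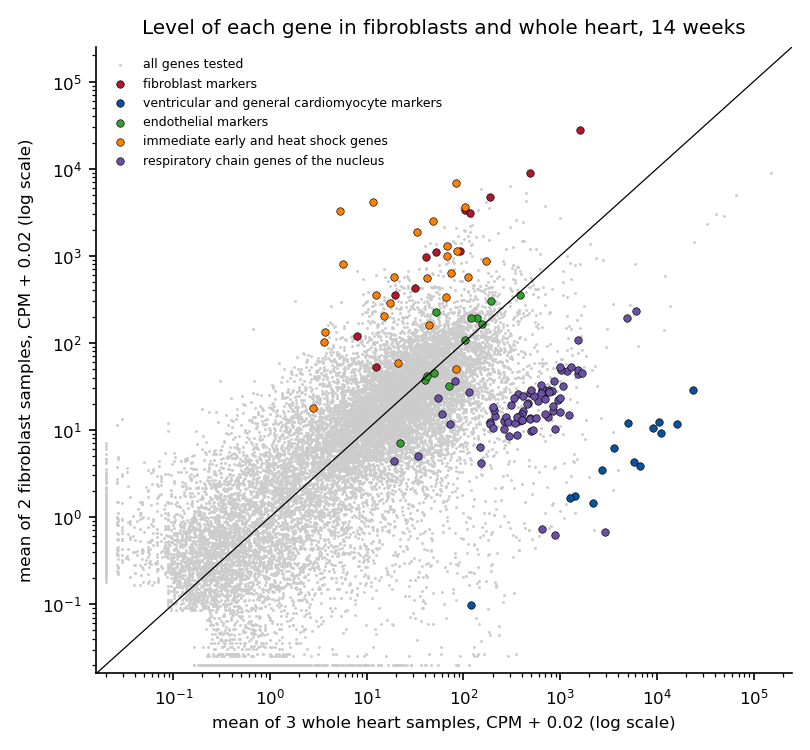
Mean level of each tested gene in the 2 fibroblast samples against that in the 3 whole heart samples, in CPM plus 0.02 on log axes, with 5 gene lists in colour and the line of equal levels. Fibroblast markers and, except for Hsph1, immediate early and heat shock genes lie above the line. Cardiomyocyte markers and nuclear genes of the respiratory chain lie below it, and endothelial markers lie on both sides of it.

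**Figure D3:**
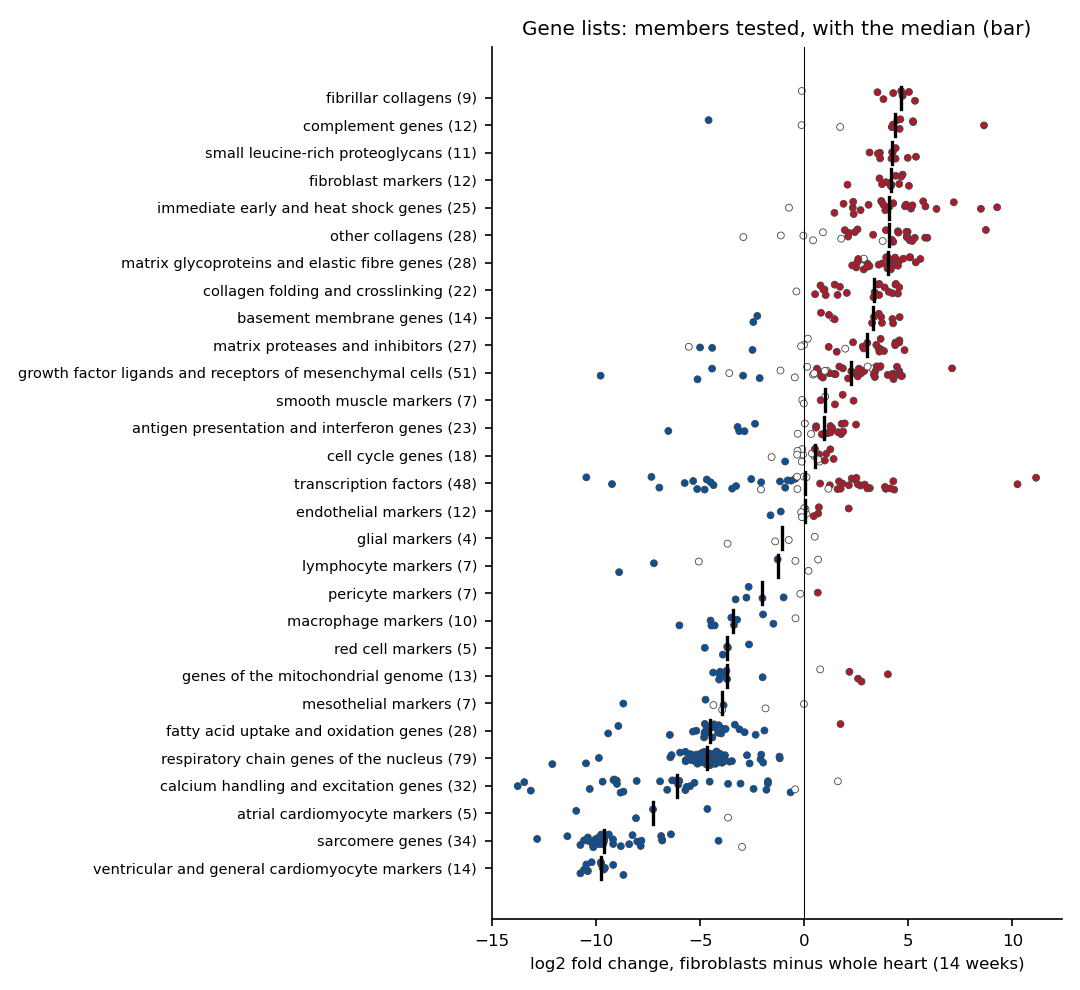
Log2 fold change (fibroblasts minus whole heart) of every tested member of 29 gene lists, with the number tested in brackets and a bar at the median. Filled points passed the test (red higher, blue lower) and open points did not. The medians run from 4.66 for fibrillar collagens to -9.77 for cardiomyocyte markers.

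Fibrillar collagens, which form the load-bearing fibres of the interstitium, were the list with the highest median. Of 9 tested, 8 were higher in fibroblasts, none was lower, and the median log2 fold change was 4.66. Col3a1, the chain of type III collagen, measured 4801 and 4750 CPM in fibroblasts and 223, 134 and 210.05 CPM in heart (log2 fold change 4.66 ± 0.22 (SE), adjusted p = 1.32e-06). Col1a2, the partner of Col1a1 in type I collagen, measured 2983 and 3169 CPM against 128, 96.8 and 124 CPM (log2 fold change 4.73 ± 0.14 (SE), adjusted p = 1.86e-07). Col5a1, a chain of type V collagen, which helps to set fibre diameter, measured 1334 and 1405 CPM against 53.3, 42.8 and 59.1 CPM (log2 fold change 4.73 ± 0.15 (SE), adjusted p = 2.34e-07). In each of these genes both fibroblast samples lay far above the hearts, and heart replicate 2 was the lowest of the hearts. The member that did not pass, Col11a2, named after its values were seen, measured 1.07 and 3.21 CPM and 3.08, 2.85 and 1.07 CPM. Fibrillar collagens took 1.89% and 1.87% of all counts in fibroblasts and 0.0497%, 0.0307% and 0.0492% in heart, a difference of 1.84 percentage points (two-sided exact permutation test, p = 0.2, the smallest that 2 against 3 samples can give).

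Of 28 other collagens tested, 21 were higher and none was lower, with a median of 4.07. Col15a1, a collagen found next to basement membranes, measured 2818 and 2787 CPM in fibroblasts against 137, 88.8 and 140.4 CPM in heart (log2 fold change 4.52 ± 0.203 (SE), adjusted p = 1.12e-06). Col6a1 and Col6a2, chains of the beaded filaments of type VI collagen, had log2 fold changes of 4.28 ± 0.11 (SE) and 4.21 ± 0.13 (SE). Col4a1, the network collagen of basement membranes, which endothelial and smooth muscle cells also make, measured 2309 and 2558 CPM against 471, 327 and 442 CPM, with a smaller change of 2.56 ± 0.16 (SE).

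The machinery that folds and crosslinks collagen was also higher, with 21 of 22 genes passing and a median of 3.35. The size of the change differed among the members with the highest levels. Serpinh1, the collagen chaperone HSP47 of the endoplasmic reticulum, measured 707 and 685 CPM in fibroblasts and 314, 332 and 377 CPM in heart (log2 fold change 1.03 ± 0.11 (SE), adjusted p = 9.92e-05). Outside the cell, Pcolce, which enhances removal of the C-propeptide, measured 601 and 732 CPM against 58.5, 58.2 and 54.4 CPM (log2 fold change 3.55 ± 0.12 (SE), adjusted p = 2.58e-07). Adamts2, which removes the N-propeptide, measured 555 and 584 CPM against 24.8, 18.5 and 28.8 CPM (log2 fold change 4.56 ± 0.19 (SE), adjusted p = 6.58e-07). Loxl1, a crosslinking enzyme best known from elastic fibres, measured 764 and 862 CPM against 68.7, 56.9 and 74.6 CPM (log2 fold change 3.61 ± 0.14 (SE), adjusted p = 5.09e-07). Thus RNA of the chaperone was about 2-fold higher in fibroblasts, whereas RNA of the extracellular proteins named here was over 10-fold higher. Only these leading members were compared, so no division of the whole pathway follows. The gene that did not pass, P4ha2, a collagen prolyl hydroxylase subunit named after its values were seen, measured 38.4 and 51.01 CPM and 52.8, 60.3 and 61.4 CPM.

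Small leucine-rich proteoglycans, which coat collagen fibres, were higher in all 11 genes tested, with a median of 4.22. Decorin (Dcn) measured 8367 and 9366 CPM in fibroblasts and 478, 452 and 528 CPM in heart (log2 fold change 4.19 ± 0.11 (SE), adjusted p = 1.14e-07), and biglycan (Bgn) measured 5732 and 6790 CPM against 317, 275 and 307 CPM (log2 fold change 4.39 ± 0.12 (SE), adjusted p = 1.24e-07). Prelp and lumican (Lum) had log2 fold changes of 4.25 ± 0.15 (SE) and 4.39 ± 0.11 (SE). The changes of these 4 genes lay close together.

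Among 28 genes of matrix glycoproteins and elastic fibres, 27 were higher and the median was 4.01. Tnxb, which encodes tenascin-X, measured 3252 and 3848 CPM in fibroblasts and 115, 83.3 and 117 CPM in heart (log2 fold change 5.07 ± 0.18 (SE), adjusted p = 3.41e-07). Fbn1, the fibrillin of microfibrils, measured 1995 and 2250 CPM against 70.2, 49.6 and 67.5 CPM (log2 fold change 5.09 ± 0.17 (SE), adjusted p = 2.77e-07), and Ltbp4, which holds latent TGFβ in the matrix, measured 4981 and 5634 CPM against 483, 368 and 484 CPM (log2 fold change 3.58 ± 0.15 (SE), adjusted p = 6.73e-07). Sparc, a collagen-binding glycoprotein that endothelial cells make as well, measured 2608 and 2493 CPM against 388, 318 and 339 CPM (log2 fold change 2.87 ± 0.11 (SE), adjusted p = 5.45e-07). Its difference was the smallest of these 4. Spp1, the osteopontin gene and the member that did not pass (named after its values were seen), was close to the detection limit in both tissues, at 1.15 and 0.388 CPM and 0, 0 and 0.309 CPM.

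Basement membrane genes divided by subunit. Of 14 tested, 11 were higher, 2 were lower and the median was 3.303. Lama2, the α2 laminin chain, which muscle cells also make, measured 1761 and 2124 CPM in fibroblasts and 105, 90.9 and 113 CPM in heart (log2 fold change 4.24 ± 0.14 (SE), adjusted p = 2.43e-07), and Lamc1, the γ1 chain, measured 3345 and 3811 CPM against 194, 157 and 206 CPM (log2 fold change 4.27 ± 0.14 (SE), adjusted p = 2.69e-07). Nid1 and Hspg2, which encode nidogen 1 and perlecan, had log2 fold changes of 4.58 ± 0.15 (SE) and 3.26 ± 0.11 (SE). Against these, Lama5, the α5 chain typical of vessel basement membranes, was lower, at 38.4 and 31.4 CPM against 177, 163 and 161 CPM (log2 fold change -2.26 ± 0.13 (SE), adjusted p = 4.31e-06). Lamb3, the β3 chain, was also lower, at 2.78 and 3.12 CPM against 16.7, 16.8 and 14.9 CPM (log2 fold change -2.45 ± 0.23 (SE), adjusted p = 5.89e-05). The α2 and γ1 chains were thus higher in the sorted cells, and the α5 chain was higher in whole heart, while Lamb3 did not pass in the fit of all 27 samples (adjusted p = 0.0708).

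Of 27 matrix proteases and their inhibitors, 19 were higher, 3 were lower and the median was 3.03. Mmp2, a gelatinase, measured 1402 and 1356 CPM in fibroblasts and 64.9, 59.2 and 73.5 CPM in heart (log2 fold change 4.39 ± 0.12 (SE), adjusted p = 1.24e-07). The inhibitors Timp2 and Timp3 were higher too, with Timp2 at 1592 and 1663 CPM against 145, 105 and 150.1 CPM and Timp3 at 1627 and 1384 CPM against 197, 166 and 190.02 CPM. So a protease and its inhibitors were higher in the same sorted samples, which in bulk RNA need not mean the same cells. The lower genes were Mmp15, a membrane-bound protease, at 37.5 and 30.3 CPM against 202, 171 and 199 CPM (log2 fold change -2.49 ± 0.15 (SE), adjusted p = 4.51e-06), and 2 scarce ones, Mmp9 (adjusted p = 0.024) and Mmp13 (adjusted p = 0.0404), both under 3 CPM in every sample. Neither scarce gene passed in the fit of all 27 samples, nor without fibroblast replicate 4 or without heart replicate 1, and the adjusted p was 0.0897 for Mmp9 and 0.0895 for Mmp13 without the former.

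Complement, the plasma protein cascade of innate immunity, was represented by 12 tested genes, of which 9 were higher and 1 was lower, with a median of 4.37. C3, its central component, measured 3521 and 4844 CPM in fibroblasts and 178, 131 and 203 CPM in heart (log2 fold change 4.62 ± 0.22 (SE), adjusted p = 1.44e-06). Serping1, the inhibitor of C1, measured 1989 and 2549 CPM against 128, 111 and 128 CPM (log2 fold change 4.21 ± 0.14 (SE), adjusted p = 2.64e-07). Both genes were over 16-fold higher in the sorted cells. Clu, the gene of clusterin, a chaperone that also binds the terminal complex, went the other way at 37.4 and 33.7 CPM against 733, 978 and 877 CPM (log2 fold change -4.601 ± 0.17 (SE), adjusted p = 3.95e-07). The C1q genes, which macrophages make, are described with the macrophage markers below.

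Growth factor ligands and receptors gave 36 higher and 5 lower genes of 51 tested, with a median of 2.26. Among the receptors, Fgfr1, a receptor of fibroblast growth factors, measured 423 and 429 CPM in fibroblasts and 38.96, 25.4 and 39.8 CPM in heart (log2 fold change 3.61 ± 0.19 (SE), adjusted p = 2.78e-06). Tgfbr2, which binds TGFβ first, measured 349 and 388 CPM against 54.5, 50.8 and 60.7 CPM (log2 fold change 2.73 ± 0.12 (SE), adjusted p = 7.93e-07). Sfrp1, a secreted antagonist of Wnt ligands, measured 426 and 477 CPM against 17.9, 13.6 and 20.7 CPM (log2 fold change 4.69 ± 0.18 (SE), adjusted p = 5.44e-07). The receptors and the antagonist named here were thus enriched in the sorted cells. Ligands were among the higher genes too. The largest rise of the list was that of Il6 (log2 fold change 7.102), described below. Ligands and receptors were not counted apart. The 5 lower genes were Vegfa, Fgf1, Fgf13, Pdgfa and Bmp7. Vegfa, the main growth factor of blood vessels, measured 70.7 and 69.5 CPM in fibroblasts and 329, 338 and 264 CPM in heart (log2 fold change -2.15 ± 0.14 (SE), adjusted p = 7.08e-06). Fgf1 measured 7.37 and 7.32 CPM against 248, 278 and 248 CPM (log2 fold change -5.13 ± 0.13 (SE), adjusted p = 1.02e-07). Pdgfa, a ligand of PDGFRα, measured 2.87 and 3.31 CPM against 26.8, 24.7 and 19.8 CPM (log2 fold change -2.94 ± 0.23 (SE), adjusted p = 2.18e-05), while its receptor gene was higher. Fgf13, an intracellular protein of this family that binds sodium channels, had a log2 fold change of -4.43 ± 0.41 (SE). Bmp7, named after its values were seen, had no count in either fibroblast sample and 1.23, 2.68 and 1.503 CPM in heart.

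Transcription factors were divided between the tissues, with 22 higher and 20 lower in fibroblasts of 48 tested and a median of 0.044. The higher ones included the fibroblast marker Tcf21, needed for cardiac fibroblasts to form from the epicardium, at 115 and 127 CPM in fibroblasts and 9.21, 5.15 and 9.61 CPM in heart (log2 fold change 3.92 ± 0.25 (SE), adjusted p = 6.94e-06). Zeb1, a zinc finger repressor known from mesenchymal cells, measured 291 and 294 CPM against 60.2, 66.6 and 71.8 CPM (log2 fold change 2.14 ± 0.11 (SE), adjusted p = 2.03e-06). Tbx20, a T-box factor of the developing heart, was higher as well, at 305 and 217 CPM against 87.2, 87.6 and 83.5 CPM (log2 fold change 1.599 ± 0.15 (SE), adjusted p = 5.16e-05). Among the lower factors, Nkx2-5, the homeobox factor of cardiomyocytes, measured 0.0259 and 0.129 CPM in fibroblasts and 125, 114 and 119.5 CPM in heart (log2 fold change -10.48 ± 0.33 (SE), adjusted p = 2.26e-07). Esrra, which drives genes of oxidative metabolism, measured 4.696 and 5.57 CPM against 187, 206 and 232 CPM (log2 fold change -5.34 ± 0.17 (SE), adjusted p = 2.26e-07), and Mef2d measured 99.7 and 119 CPM against 218, 209 and 194 CPM (log2 fold change -0.92 ± 0.12 (SE), adjusted p = 0.000368). Ankrd1, a cofactor abundant in heart muscle, had one of the larger losses, at 1.11 and 1.61 CPM against 939, 781 and 771 CPM (log2 fold change -9.24 ± 0.24 (SE), adjusted p = 1.08e-07). With library size scaling the list counted 24 higher and 16 lower, and Mef2d no longer passed (adjusted p = 0.374).

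Immediate early genes, which encode transcription factors and feedback regulators that appear within minutes of many stimuli, enzyme digestion among them, and heat shock genes were higher in fibroblasts in 24 of 25 cases, with a median of 4.09. In those 24 genes both fibroblast samples were above all hearts. The groups did not overlap in 73.0% of all genes tested. Fosb, a partner in the AP-1 complex, measured 3031 and 3471 CPM in fibroblasts and 4.26, 7.14 and 4.57 CPM in heart (log2 fold change 9.27 ± 0.26 (SE), adjusted p = 1.29e-07), and Fos measured 3988 and 4201 CPM against 6.09, 20.6 and 7.92 CPM (log2 fold change 8.49 ± 0.55 (SE), adjusted p = 7.08e-06). Jun, the other partner in AP-1, measured 3367 and 3953 CPM against 100.1, 117 and 96.5 CPM (log2 fold change 5.13 ± 0.13 (SE), adjusted p = 1.1e-07). Egr1, a zinc finger factor, was among the 10 genes with most counts in fibroblasts, at 6450 and 7311 CPM against 32.4, 188 and 32.6 CPM (log2 fold change 6.35 ± 0.83 (SE), adjusted p = 0.000369). Its 3 hearts were not alike, and heart replicate 2 was the highest. Heart replicate 2 was the highest heart in 20 of the 25 genes, against 3 for replicate 1 and 2 for replicate 3. How often it was the highest heart over all genes tested was not counted. Heart replicate 2 also had the fewest counts and the largest mitochondrial share (34.5%) of the hearts. The 20 genes can therefore not be read as a trait of this list. The list took 4.18% and 4.49% of all counts in fibroblasts and 0.0842%, 0.115% and 0.0883% in heart (exact permutation p = 0.2). Cell type and isolation cannot be told apart here, and the part of the digestion was not tested.

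**Figure D4:**
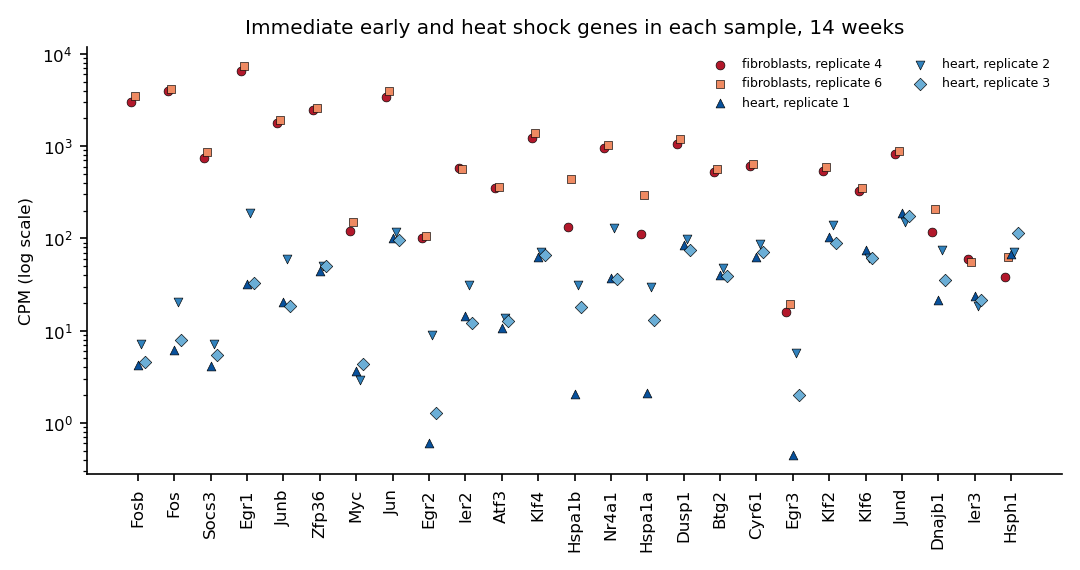
CPM (log scale) of 25 immediate early and heat shock genes in each of the 5 samples, ordered by log2 fold change. Both fibroblast samples lie above the 3 hearts for all genes except Hsph1, and heart replicate 2 lies highest among the hearts in 20 genes.

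Hspa1a measured 112 and 298 CPM in fibroblasts and 2.11, 29.6 and 12.9 CPM in heart, and Hspa1b 134 and 445 CPM against 2.04, 31.6 and 17.97 CPM, both named after their values were seen. Fibroblast replicate 6 was over 2-fold above replicate 4 in both, and 17.5% of all genes tested were over 2-fold apart between these samples. These genes are near-identical copies whose reads can be split or lost, so their levels are uncertain. Hsph1, named after its values were seen, measured 38.2 and 62.7 CPM in fibroblasts and 67.1, 71.9 and 113 CPM in heart and did not pass the test (adjusted p = 0.0596). It passed as lower with DESeq2 (adjusted p = 0.0259), with no filter (0.0386), with at least 10 counts in every sample (0.0241) and without fibroblast replicate 6 (0.0142) or heart replicate 1 (0.0466).

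The promoters of these genes were searched for the CArG box, a run of A and T between CC and GG to which serum response factor (Srf) binds, in both immediate early and muscle genes. RefSeq promoters were found for 20 of the 25 genes. In the 250 bases before the start, 5 of their 26 promoters (19.2%) held a match on either strand, against 1.47% of all 32851 promoters. These 5 promoters belong to only 2 genes, Egr2 and Zfp36. By gene, a match was held by 2 of 20, against 439 of 27025 in all. A match is a description of the sequence, and no match says nothing about the factor. Other motifs were searched for too, in this and other lists. In the same 26 promoters the shares were 11.5% (MEF2 box), 7.69% (TGACGTCA), 50% (CCAAT), 3.85% (TATAAA) and 0% (TGANTCA). Over all promoters they were 2.92%, 1.55%, 33.8%, 7.59% and 6.75%, in that order. Zfp36, whose protein speeds the decay of cytokine mRNAs, measured 2468 and 2593 CPM in fibroblasts and 44.8, 50.1 and 49.8 CPM in heart (log2 fold change 5.71 ± 0.11 (SE), adjusted p = 5.69e-08). Egr2, a zinc finger factor related to Egr1, measured 100.1 and 106 CPM against 0.598, 8.98 and 1.28 CPM (log2 fold change 4.903 ± 0.900 (SE), adjusted p = 0.00234). The windows below show where the match lies in these promoters, as 150 bases ending 1 base before the transcription start, read 5′ to 3′ on the strand of the gene, with the CArG box in capitals (RefSeq, GRCm38.p6). The window of Zfp36 is chr7:28379229-28379378 on the minus strand, with the box 58 to 49 bases before the start, and that of Egr2 is chr10:67537416-67537565 on the plus strand, with the box 72 to 63 bases before the start.
Zfp36: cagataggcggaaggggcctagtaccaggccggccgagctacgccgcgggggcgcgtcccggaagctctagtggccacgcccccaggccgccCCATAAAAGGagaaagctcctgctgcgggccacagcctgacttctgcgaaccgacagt
Egr2: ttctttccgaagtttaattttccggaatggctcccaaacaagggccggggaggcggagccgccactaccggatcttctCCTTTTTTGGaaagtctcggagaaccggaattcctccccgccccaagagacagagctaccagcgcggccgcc

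Other genes were also among the largest gains. Cell type and isolation cannot be told apart in these either, and the part of the digestion was not tested. Ptgs2, the inducible cyclooxygenase, measured 146 and 141 CPM in fibroblasts and 0.934, 0.691 and 0.329 CPM in heart (log2 fold change 7.77 ± 0.301 (SE), adjusted p = 5.28e-07). Cxcl1, a neutrophil chemokine, measured 294 and 312 CPM against 1.46, 2.53 and 1.42 CPM (log2 fold change 7.43 ± 0.24 (SE), adjusted p = 2.43e-07), and Il6, the cytokine interleukin 6, measured 31.9 and 40.1 CPM against 0.112, 0.605 and 0.144 CPM (log2 fold change 7.102 ± 0.55 (SE), adjusted p = 1.86e-05). These 3 genes were almost silent in all hearts. Socs3, a feedback inhibitor of cytokine signalling, and Nfkbiz, a regulator of NF-κB target genes, had log2 fold changes of 7.19 ± 0.24 (SE) and 5.99 ± 0.28 (SE). Ptx3, a secreted pattern recognition protein, had one of 6.55 ± 0.83 (SE). Cilp, an extracellular protein first known from cartilage, measured 574 and 768 CPM in fibroblasts and 7.79, 5.87 and 9.98 CPM in heart (log2 fold change 6.405 ± 0.25 (SE), adjusted p = 5.09e-07). Has1, a hyaluronan synthase, measured 16.98 and 29.8 CPM against 0.467, 0.403 and 0.247 CPM (log2 fold change 5.97 ± 0.395 (SE), adjusted p = 8.27e-06), and Itih2, a heavy chain that is transferred to hyaluronan, measured 16.9 and 14.9 CPM against 0.0187, 0.403 and 0.226 CPM (log2 fold change 6.29 ± 0.73 (SE), adjusted p = 0.000188). Both hyaluronan genes were absent or scarce in heart. Fam71a and Aox3, an aldehyde oxidase, had no more than 3 counts in any heart, and their levels in fibroblasts, 14.2 and 12.3 CPM and 11.9 and 10.6 CPM, were at least 195-fold and at least 166-fold higher than a floor of 3 counts per library allows in heart. Naaladl2 measured 10.9 and 13.1 CPM in fibroblasts and 0, 0 and 0.206 CPM in heart. Lrp1, an endocytic receptor that is no member of the lists, was among the 10 genes with most counts in fibroblasts, at 5434 and 6120 CPM against 158, 134 and 169 CPM (log2 fold change 5.23 ± 0.13 (SE), adjusted p = 1.04e-07).

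Sarcomere genes made up the contractile side of the depleted genes. Of 34 tested, 33 were lower in fibroblasts, none was higher and the median was -9.64. Myl2, the ventricular regulatory light chain of myosin, measured 10.4 and 8.21 CPM in fibroblasts and 10682, 12470 and 10148 CPM in heart (log2 fold change -10.22 ± 0.22 (SE), adjusted p = 6.11e-08). Actc1, cardiac actin, measured 13.5 and 10.8 CPM against 10243, 11343 and 10127 CPM (log2 fold change -9.76 ± 0.19 (SE), adjusted p = 5.69e-08). Tpm1, a tropomyosin gene that is also used outside muscle, measured 143 and 137 CPM against 11632, 12600 and 11484 CPM (log2 fold change -6.41 ± 0.12 (SE), adjusted p = 5.69e-08). Tpm1 therefore kept more of its heart level in the sorted cells than the genes used only in striated muscle named here. Mb, myoglobin, the oxygen store of muscle, measured 9.46 and 13.8 CPM against 16262, 16598 and 15513 CPM (log2 fold change -10.44 ± 0.24 (SE), adjusted p = 8.38e-08). The member that did not pass, Mybphl, named after its values were seen, measured 0.336 and 0.0108 CPM and 2.91, 1.18 and 0.0617 CPM. Sarcomere genes took 0.0423% and 0.0348% of all counts in fibroblasts and 8.499%, 8.47% and 8.59% in heart (exact permutation p = 0.2).

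Promoters of 30 sarcomere genes were found in RefSeq. Of their 39 promoters, 7 (17.9%) held a CArG box within 250 bases before the start, those of Acta1, Actc1, Ldb3, Myl3, Myom1 and Nebl. By gene, this was 6 of 30. The other motifs were found in 12.8% (MEF2 box), 7.69% (TGANTCA), 5.13% (TATAAA), 30.8% (CCAAT) and 0% (TGACGTCA) of these promoters. The CArG box thus occurred near the start of some genes that were higher and some that were lower in the sorted cells. Srf itself measured 41.5 and 48.8 CPM in fibroblasts and 204, 166 and 199 CPM in heart (log2 fold change -2.07 ± 0.14 (SE), adjusted p = 9.88e-06). Myl3, the essential light chain of the ventricle, measured 4.204 and 3.48 CPM against 6727, 6964 and 6327 CPM (log2 fold change -10.76 ± 0.18 (SE), adjusted p = 5.69e-08). Its promoter and that of Actc1 are shown in the same way as those of Zfp36 and Egr2 above, to compare the place of the box. The window of Actc1 is chr2:114052876-114053025 on the minus strand, with the box 47 to 38 bases before the start, and that of Myl3 is chr9:110763528-110763677 on the plus strand, with the box 85 to 76 bases before the start.
Actc1: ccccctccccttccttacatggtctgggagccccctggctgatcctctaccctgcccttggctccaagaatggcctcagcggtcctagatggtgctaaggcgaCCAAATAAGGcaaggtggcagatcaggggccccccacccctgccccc
Myl3: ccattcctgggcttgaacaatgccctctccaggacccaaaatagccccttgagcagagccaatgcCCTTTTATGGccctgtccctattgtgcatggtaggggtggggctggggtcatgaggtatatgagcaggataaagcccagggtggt

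Genes of calcium handling and excitation were lower in 30 of 32 cases, and none was higher, with a median of -6.13. Atp2a2, the calcium pump SERCA2 that refills the sarcoplasmic reticulum, measured 270.4 and 254 CPM in fibroblasts and 13127, 13413 and 14798 CPM in heart (log2 fold change -5.72 ± 0.12 (SE), adjusted p = 6.11e-08). Pln, phospholamban, the inhibitor of that pump, measured 15.6 and 8.69 CPM against 4935, 5098 and 5027 CPM (log2 fold change -8.69 ± 0.32 (SE), adjusted p = 3.94e-07). Ryr2, the calcium release channel, measured 2.57 and 0.884 CPM against 1329, 1406 and 1504 CPM (log2 fold change -9.69 ± 0.49 (SE), adjusted p = 1.99e-06), and Hrc, a calcium-binding protein of the same store, 0.517 and 1.65 CPM against 1302, 1466 and 1464 CPM (log2 fold change -10.31 ± 0.49 (SE), adjusted p = 1.44e-06). The pump, which other cells also use, lost less than its inhibitor and the channel. Kcnj11, the pore of the ATP-sensitive potassium channel, named after its values were seen, had no more than 3 counts in either fibroblast sample and was at least 6519-fold lower than in heart.

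Fatty acid uptake and oxidation genes were lower in 27 of 28 cases, with a median of -4.52. Fabp3, the fatty acid binding protein of heart muscle, measured 3.997 and 1.8003 CPM in fibroblasts and 1859, 2262 and 1830 CPM in heart (log2 fold change -9.43 ± 0.42 (SE), adjusted p = 1.02e-06). Lpl, lipoprotein lipase, measured 743 and 884 CPM against 5244, 6580 and 5990 CPM (log2 fold change -2.87 ± 0.14 (SE), adjusted p = 1.95e-06). Hadha and Acadm, enzymes of mitochondrial β-oxidation, had log2 fold changes of -4.72 ± 0.12 (SE) and -5.19 ± 0.11 (SE). Cpt1a, an isoform of the carnitine palmitoyltransferase that admits fatty acids to mitochondria, was the exception and was higher, at 129 and 131 CPM against 40.1, 34.7 and 42.1 CPM (log2 fold change 1.74 ± 0.12 (SE), adjusted p = 9.32e-06).

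All 79 nuclear genes of the respiratory chain and ATP synthase were lower, with a median of -4.68, against 29.0% of all genes tested. Atp5b, the catalytic subunit of ATP synthase, measured 237 and 229 CPM in fibroblasts and 6055, 5972 and 6360 CPM in heart (log2 fold change -4.72 ± 0.11 (SE), adjusted p = 7.38e-08). Atp5a1, the α subunit, measured 193 and 193 CPM against 4688, 5075 and 5073 CPM (log2 fold change -4.68 ± 0.11 (SE), adjusted p = 8.38e-08). Cox6a2, the muscle isoform of a cytochrome oxidase subunit, measured 0.3104 and 0.981 CPM against 2880, 3213 and 2728 CPM (log2 fold change -12.11 ± 0.47 (SE), adjusted p = 5.27e-07). The subunits of ATP synthase, which all cells use, were still well measured in the sorted cells, whereas the muscle isoform was close to the detection limit there.

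The genes encoded by the mitochondrial genome were lower to a similar extent where they were abundant. Of 13 tested, 8 were lower and 4 were higher. mt-Co1, a cytochrome oxidase subunit, measured 9932 and 7958 CPM in fibroblasts and 151706, 163111 and 135089 CPM in heart (log2 fold change -4.07 ± 0.15 (SE), adjusted p = 4.14e-07). mt-Cytb, cytochrome b, measured 5445 and 4656 CPM against 58915, 83618 and 56167 CPM (log2 fold change -3.71 ± 0.21 (SE), adjusted p = 3.62e-06), and mt-Nd1, a complex I subunit, 3200 and 2594 CPM against 45366, 60833 and 42342 CPM (log2 fold change -4.095 ± 0.21 (SE), adjusted p = 1.94e-06). mt-Nd2, mt-Nd4, mt-Nd5 and the ribosomal RNA mt-Rnr2 had log2 fold changes of -3.85, -4.05, -3.74 and -4.41. The 4 higher genes, mt-Co2, mt-Co3, mt-Atp6 and mt-Nd4l, were counted at under 15 CPM in every sample, with mt-Co2 at 14.5 and 9.67 CPM and 1.25, 3.31 and 1.52 CPM. Their sequences have near-identical copies in nuclear DNA, between which reads can be split or lost, so their levels and direction are uncertain, and none of the 4 passed in the fit of all 27 samples. The list took 3.69% and 2.89% of all counts in fibroblasts and 28.3%, 32.9% and 26.3% in heart (exact permutation p = 0.2).

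The 15 genes with the lowest fitted fold changes had at most 1 count in each fibroblast sample. Their fitted sizes, and so their order, depend on the prior count of the fit, and only a lower bound of the loss can be given, against a floor of 3 counts per library. Genes outside the 15, such as Kcnj11 above, have bounds larger than some of theirs. Trim54, a muscle ubiquitin ligase that binds microtubules, measured 311, 360.00 and 369 CPM in heart and was at least 9749-fold lower in fibroblasts. Tuba8, an α-tubulin, measured 248, 324 and 286 CPM in heart and was at least 8050-fold lower. Plin5, a lipid droplet protein of oxidative tissue, measured 169, 168 and 158 CPM and was at least 4637-fold lower. All 3 genes were well measured in every heart. Fitm1 and Cidea, also proteins of lipid droplets, were at least 3848-fold and at least 1011-fold lower. Others were Yipf7, Paqr9, Syngr1, Tecrl, Mreg, Hhatl, Asb11 and Dhrs7c, with bounds from 1137-fold for Mreg to 3998-fold for Hhatl.

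Many muscle genes have a relative that is used more widely, and the share of each pair was compared per kb of exon length in 25 pairs. In 14 pairs the muscle gene was lower and its relative was higher in fibroblasts. In 19 of the 25 pairs the gene with the higher level per kb, by the group means, was a different one in the 2 tissues. The log2 ratio of Actc1 to Actb, the cytoplasmic β-actin, was -5.698 and -6.11 in fibroblasts and 4.84, 5.101 and 4.97 in heart. For Myl3 to Myl6, a light chain of non-muscle and smooth muscle myosin, it was -5.14 and -5.35 against 6.43, 6.49 and 6.61. For the creatine kinases Ckm, of muscle, and Ckb, of brain and other tissues, it was -5.74 and -5.81 against 5.53, 6.49 and 5.99. In all 3 pairs the relative prevailed in the sorted cells and the muscle gene in heart, with no overlap.

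The same held for genes of protein synthesis. The log2 ratio of Eef1a2, the elongation factor of adult muscle and nerve, to Eef1a1 was -7.99 and -7.84 in fibroblasts and 1.48, 1.83 and 1.64 in heart. Rpl3l, the ribosomal protein of striated muscle, stood to Rpl3 at -7.34 and -7.91 against 3.35, 2.83 and 3.13. Eef1a1, Rpl3 and Actb have processed copies elsewhere in the genome, to which reads can be lost, so the ratios that hold them are uncertain in size. Tpm1 and Tpm4 were at -3.04 and -2.995 in fibroblasts and 5.100, 5.41 and 5.01 in heart. Atp2a2 kept the higher level per kb over Atp2b4, a calcium pump of the plasma membrane, in both tissues, although its log2 ratio went from 10.05, 10.46 and 10.23 in heart to 1.49 and 1.35 in fibroblasts. The other pairs with opposite changes were Pgam2 and Pgam1, Pfkm and Pfkp, Actn2 and Actn1, Fhl2 and Fhl1, Tuba8 and Tuba1a, Fxyd1 and Fxyd5, and Cpt1b and Cpt1a. Cpt1b was counted at only 5.45, 4.89 and 3.85 CPM in heart and lies in an annotated overlap with Chkb on the same strand, which makes its level uncertain, and it did not pass in the fit of all 27 samples (adjusted p = 0.132).

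**Figure D5:**
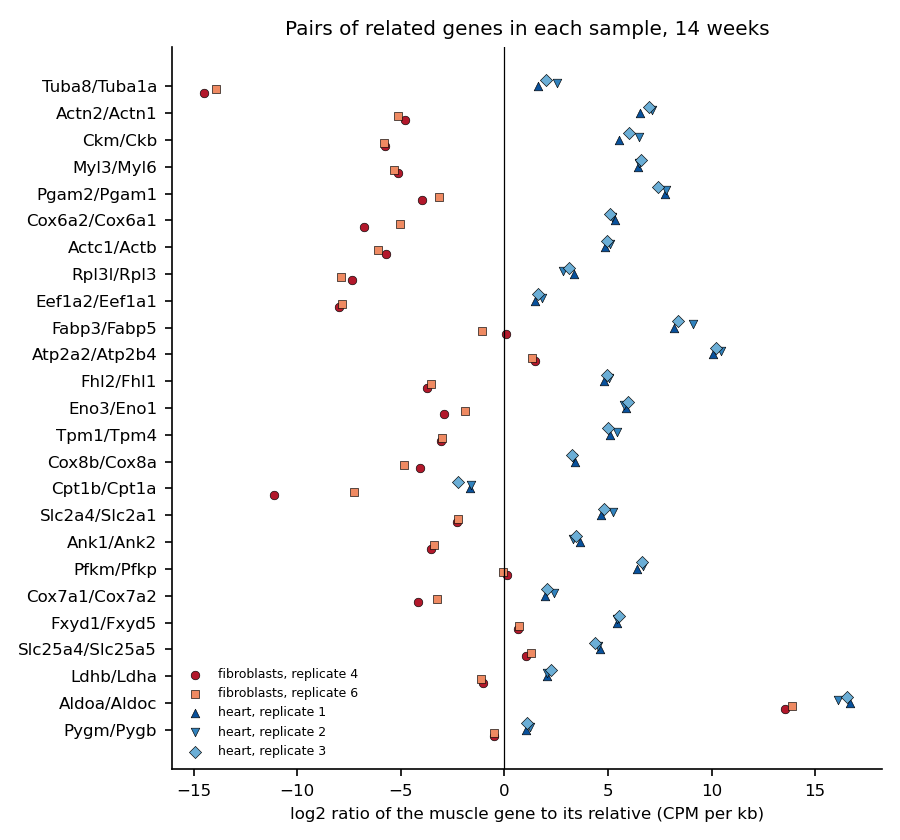
Log2 ratio of a muscle gene to its relative, each in CPM per kb of exon length, in each of the 5 samples for 25 pairs, with a line at equal levels. Fibroblast points lie left of the heart points in the 25 pairs shown. Aldoc was close to 0 in all 5 samples, so its ratio rests on an offset.

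Genes of endothelial cells did not move together. Of 12 markers, 4 were higher in fibroblasts and 2 were lower, with a median of 0.026, and with library size scaling 10 were higher and 1 was lower. Over all genes tested, with TMM, 27.4% were higher and 29.0% were lower. In the fit of all 27 samples, where the common biological coefficient of variation was 83.6% against 46.8%, Tek was the only gene named here that passed. Tek, the angiopoietin receptor, measured 224 and 229 CPM in fibroblasts and 47.9, 51.6 and 55.3 CPM in heart (log2 fold change 2.13 ± 0.105 (SE), adjusted p = 1.74e-06). Cdh5, the cadherin of endothelial junctions, measured 343 and 267 CPM against 207, 189 and 180.1 CPM (log2 fold change 0.67 ± 0.13 (SE), adjusted p = 0.00324), and Flt1, a VEGF receptor, 194 and 196 CPM against 117, 115 and 127 CPM (log2 fold change 0.702 ± 0.10 (SE), adjusted p = 0.000498). Lower were Cldn5, a tight junction protein, at 8.201 and 6.09 CPM against 20.8, 22.9 and 22.4 CPM (log2 fold change -1.62 ± 0.21 (SE), adjusted p = 0.000331), and Vwf, von Willebrand factor, at 34.6 and 29.8 CPM against 50.2, 57.5 and 104 CPM (log2 fold change -1.13 ± 0.31 (SE), adjusted p = 0.0153). In that fit of 27 samples the adjusted p was 0.343 for Cdh5, 0.272 for Flt1, 0.111 for Cldn5 and 0.258 for Vwf. Vwf also no longer passed without fibroblast replicate 6 (adjusted p = 0.0594) or with library size scaling (0.374). Fabp4, of capillary endothelium, measured 387 and 326 CPM and 402, 376 and 378 CPM and did not pass (adjusted p = 0.422). The list took 0.2605% and 0.213% of counts in fibroblasts and 0.115%, 0.1003% and 0.116% in heart, a difference of 0.126 percentage points (exact permutation p = 0.2).

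Of 7 pericyte markers, 5 were lower and 1 was higher. Rgs5 measured 144 and 107 CPM in fibroblasts and 503, 508 and 511 CPM in heart (log2 fold change -2.01 ± 0.14 (SE), adjusted p = 1.28e-05). The channel genes Abcc9 and Kcnj8, which encode subunits of ATP-sensitive potassium channels, had log2 fold changes of -2.78 ± 0.16 (SE) and -3.302 ± 0.18 (SE). Kcnj11, another subunit gene of such channels, was lower with the excitation genes above. The part of muscle cells in the fall of Abcc9 was not tested. Notch3, a receptor of mural cells, was higher at 65.5 and 50.3 CPM against 43.9, 34.8 and 32.03 CPM (log2 fold change 0.65 ± 0.18 (SE), adjusted p = 0.0167), but not without fibroblast replicate 4 (adjusted p = 0.124) or in the fit of all 27 samples (0.0757). Of 7 smooth muscle markers, 4 were higher and none was lower, where 27.4% of all genes tested were higher and 29.0% were lower. Myh11, smooth muscle myosin, measured 82.3 and 62.9 CPM in fibroblasts and 17.3, 10.3 and 14.5 CPM in heart (log2 fold change 2.37 ± 0.23 (SE), adjusted p = 6.52e-05). Acta2, smooth muscle actin, measured 73.5 and 50.2 CPM against 65.1, 77.9 and 55.8 CPM and did not pass (adjusted p = 0.716). Of the mural genes, therefore, Myh11 was enriched and Rgs5 was depleted, while Acta2 overlapped between the tissues.

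Macrophage markers were lower in 9 of 10 cases. Lyz2, lysozyme, measured 9.75 and 13.9 CPM in fibroblasts and 142, 121 and 142 CPM in heart (log2 fold change -3.51 ± 0.19 (SE), adjusted p = 3.2e-06). C1qa, a chain of the first complement component, measured 3.03 and 3.96 CPM against 65.4, 72.5 and 70.1 CPM (log2 fold change -4.31 ± 0.18 (SE), adjusted p = 7.09e-07). Genes of MHC class II, which present antigen on macrophages, dendritic cells and B cells, followed, with Cd74, the invariant chain, at 19.5 and 25.6 CPM against 146, 177 and 173 CPM (log2 fold change -2.87 ± 0.17 (SE), adjusted p = 4.32e-06). H2-Ab1, H2-Aa and H2-Eb1 were lower with log2 fold changes of -3.21, -3.13 and -2.37. Class I went the other way. B2m, the light chain of all class I molecules, measured 818 and 934 CPM in fibroblasts and 236, 298 and 237 CPM in heart (log2 fold change 1.77 ± 0.13 (SE), adjusted p = 1.58e-05), and H2-D1 measured 382 and 442 CPM against 145, 187 and 169.6 CPM (log2 fold change 1.300 ± 0.13 (SE), adjusted p = 8.3e-05). Ly6e had a log2 fold change of 1.34 ± 0.10 (SE). In all, 15 of 23 antigen presentation and interferon genes were higher and 5 were lower. All 5 red cell markers were lower, with Hbb-bs, adult β-globin, at 9.75 and 9.66 CPM against 300.5, 232 and 268 CPM (log2 fold change -4.78 ± 0.16 (SE), adjusted p = 2.62e-07). The globin genes have close copies, so their split between copies is uncertain.

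No atrial, lymphocyte, mesothelial or glial marker passed as higher in fibroblasts. Atrial markers were lower in 4 of 5 cases, with Nppa, the natriuretic peptide of atrial and stressed ventricular muscle, at 1.05 and 0.377 CPM in fibroblasts and 109.99, 122 and 91.9 CPM in heart (log2 fold change -7.27 ± 0.41 (SE), adjusted p = 3.58e-06). Myl7, an atrial light chain, had at most 1 count in the sorted samples and 32.7, 11.5 and 3.03 CPM in heart. The hearts thus differed over 10-fold among themselves in this atrial gene. Of 7 tested lymphocyte markers 3 were lower, of 7 mesothelial markers 3 were lower, and of 4 glial markers none passed. Over all genes tested, 29.0% were lower and 27.4% were higher, so counts this small do not set these lists apart. Upk3b, of the mesothelium that covers the heart, measured 0.0776 and 0.582 CPM against 10.6, 5.38 and 11.1 CPM (log2 fold change -4.75 ± 0.84 (SE), adjusted p = 0.00189). Ptprc, the CD45 antigen of white blood cells, measured 2.46 and 2.43 CPM against 4.31, 8.78 and 4.75 CPM (log2 fold change -1.28 ± 0.44 (SE), adjusted p = 0.039). This call was lost without any one of 4 samples, heart replicate 1 being the exception, with adjusted p-values of 0.0618 to 0.139, and in the fit of all 27 samples (0.572).

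Cell cycle genes mostly did not pass, with 6 higher and 1 lower of 18 and a median of 0.498. Over all genes tested, 27.4% were higher and 29.0% were lower, so 6 of 18 higher is close to the share of all genes. With library size scaling the list counted 9 higher and none lower. Ccnd1, cyclin D1, measured 169 and 147 CPM in fibroblasts and 103, 96.8 and 90.4 CPM in heart (log2 fold change 0.71 ± 0.11 (SE), adjusted p = 0.00103). Ccnd2, cyclin D2, was lower at 76.6 and 69.9 CPM against 133, 133 and 151 CPM (log2 fold change -0.92 ± 0.11 (SE), adjusted p = 0.000266), though not with library size scaling (adjusted p = 0.424), and Cdkn1b, the inhibitor p27, was higher (log2 fold change 0.99 ± 0.14 (SE), adjusted p = 0.000545). Mki67, the proliferation antigen Ki67, named after its values were seen, measured 4.82 and 4.96 CPM in fibroblasts and 6.26, 3.43 and 5.599 CPM in heart and did not pass (adjusted p = 0.91).

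The 14 week contrast was set beside those at 4 weeks (3 fibroblast and 3 heart samples) and 1 year (2 and 3 samples), each in its own fit. Of the genes higher in fibroblasts at 14 weeks, 2808 of the 4330 that could be tested at 4 weeks (64.8%) were also higher there, which is 88.6% of the genes higher at 4 weeks among those also tested at 14 weeks, and 15 were lower. Of the genes lower at 14 weeks, 2970 of 4793 (62.0%, and 92.9% of those lower at 4 weeks, counted in the same way) were also lower there, and 8 were higher. At 1 year, 3393 of 4498 higher genes (75.4%, and 77.9% of the calls at that age that were tested at 14 weeks) and 3398 of 4895 lower genes (69.4%, and 82.2%) passed in the same direction, and 47 and 69 passed in the opposite one. Of all genes, 20.9% were called in each direction at 4 weeks, and 25.6% higher and 24.2% lower at 1 year.

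The difference of the contrast itself was tested over all 27 samples. Between 14 weeks and 4 weeks it passed in 143 of 20650 genes (0.692%), higher at 14 weeks in 84 and lower in 59. Between 14 weeks and 1 year it passed in 355 genes (1.72%), higher in 97 and lower in 258. These counts rest on few samples, and without fibroblast replicate 4 of 14 weeks they were 41 and 66. They also moved with the method. Library size scaling gave 228 higher and 36 lower against 4 weeks and 146 higher and 53 lower against 1 year, so that the balance against 1 year turned. A fit of the samples of 14 weeks and 1 year alone gave 1598 genes. The 4 week samples differ from those of 14 weeks also in Xist, the RNA that coats the inactive X chromosome of females, which measured 518, 329 and 347 CPM in fibroblasts and 84.8, 7.13 and 155 CPM in heart at 4 weeks (scaled over all 27 samples) and under 1 CPM in every sample of 14 weeks and of 1 year, so sex and age cannot be told apart between 4 and 14 weeks.

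Macrophage markers were tested against both ages. Against 4 weeks, 6 of 10 had a contrast that was lower at 14 weeks, and 3 without fibroblast replicate 4 of 14 weeks. Named after its values were seen, C1qa measured 60.6, 69.6 and 67.3 CPM in fibroblasts and 96.3, 126 and 119 CPM in heart at 4 weeks, against 3.44 and 4.47 CPM and 68.8, 75.8 and 74.03 CPM at 14 weeks on the same scale (difference of contrasts -3.41 ± 0.48 (SE), adjusted p = 0.000747). The sorted cells of 4 weeks held over 10-fold more C1qa RNA than those of 14 weeks, and the hearts differed less. Against 1 year, 3 of 10 differed in the other direction (1 to 3 on leaving out 1 sample), with Lyz2 at 5.89 and 3.51 CPM in fibroblasts of 1 year and 11.1 and 15.7 CPM in those of 14 weeks (difference of contrasts 2.27 ± 0.53 (SE), adjusted p = 0.0287). The call for Lyz2 against 1 year was lost in 9 of 10 fits without 1 sample (adjusted p = 0.0593 to 0.188), whereas that of C1qa against 4 weeks held in all. Cd163, a scavenger receptor of macrophages, was among the 5 largest differences against 1 year, at 3.43 and 3.22 CPM in fibroblasts of 14 weeks and 0 and 0.0143 CPM in those of 1 year, with 20.6, 15.9 and 24.2 CPM and 31.2, 24.3 and 26.1 CPM in the hearts. It did not pass without either fibroblast sample of 1 year (adjusted p = 0.112 and 0.0551).

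Acta2, named after its values were seen, also differed against 4 weeks. It measured 30.6, 25.1 and 28.2 CPM in fibroblasts and 419.6, 636 and 563 CPM in heart at 4 weeks, and 83.6 and 56.7 CPM and 68.5, 81.4 and 58.9 CPM at 14 weeks (4.28 ± 0.51 (SE), adjusted p = 0.000141). Fibroblasts of 4 weeks were lower than those of 14 weeks, and the hearts of 4 weeks stood several-fold above those of 14 weeks, so most of this difference lay in the hearts. Against 4 weeks, no fibrillar collagen and no folding gene had a different contrast, which does not show that they were alike.

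Against 1 year, 1 of 11 fibrillar collagens and 6 of 22 folding and crosslinking genes had a contrast that was lower at 14 weeks. For the folding genes the count was 1 with library size scaling, and 1 without fibroblast replicate 4 or heart replicate 3 of 14 weeks or fibroblast replicate 4 of 1 year. Serpinh1 measured 2044 and 1693 CPM in fibroblasts and 210.1, 209 and 188 CPM in heart at 1 year, and 804 and 774 CPM and 330.00, 347 and 398 CPM at 14 weeks (-2.07 ± 0.28 (SE), adjusted p = 0.000293). Col1a1 measured 8463 and 5943 CPM and 90.5, 82.1 and 77.1 CPM at 1 year, and 3705 and 3929 CPM and 112, 86.6 and 126 CPM at 14 weeks (-1.296 ± 0.32 (SE), adjusted p = 0.0348). The fibroblasts of 1 year were above those of 14 weeks in both genes, and the hearts of 1 year were below those of 14 weeks in Serpinh1 but overlapped with them in Col1a1. Serpinh1 passed under every alternative run, but Col1a1 did not with library size scaling (adjusted p = 0.181) or in 8 of 10 fits without 1 sample (up to 0.286). Of the 25 immediate early and heat shock genes, 7 had a lower contrast at 14 weeks (1 to 5 on leaving out 1 sample), among them Jund at -1.61 ± 0.29 (SE), adjusted p = 0.00522, named after its values were seen. Jund did not pass without fibroblast replicate 4 of 14 weeks (adjusted p = 0.0562).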

How the data were processed

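The study's 27 RNA-Seq libraries were made from polyA RNA of whole heart or of cardiac fibroblasts and sequenced as single-end reads. The authors aligned the reads to the mouse genome (mm10) with STAR 2.5.3a and deposited raw counts of reads per gene for each tissue, unnormalized whole numbers; the strand setting was not given in the sources used here, so overlapping and antisense genes may share reads. No column was left unmapped. The 2 tables were joined by gene symbol (22855 genes), of which 21796 (95.4%) were found in GENCODE M21, the source of coordinates and exon lengths.

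At 14 weeks, 2 fibroblast and 3 heart samples were compared with edgeR 4.0.16 in R 4.3.3 (filterByExpr, TMM, quasi-likelihood F test, Benjamini-Hochberg adjustment, threshold 0.05), and standard errors were taken from the F statistic. The common biological coefficient of variation was 46.8%. Differences of the contrast between ages used 27 samples in 10 groups. Shares of counts were compared by the two-sided exact permutation test over 10 splits. Where no sample of a group exceeded 3 counts, the gene is given by a bound, which covers counting error only. Genes named were the 15 largest fitted changes in each direction with a mean of at least 10 CPM in the higher group, the 10 with most counts per tissue, markers, up to 4 leading members of each list and up to 4 against its direction, pairs of opposite change, and the 5 largest differences between ages. Some genes that the rule names, and 1 pair, are not reported here. Members and lists were chosen with earlier results of these data known. Scripts were tested on simulated data. Alternatives were DESeq2 1.42.0, other scalings and filters, a fit of 27 samples, leaving out each sample and a replicate block. RefSeq promoters were searched over 250 bases before the start, for the CArG box and the other motifs named.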

Additional observations from a re-analysis of the deposited data

Results flagged for a closer look

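The contrast of fibroblasts and heart differed between 14 weeks and another age, by the interaction test over all 27 samples with edgeR, for 143 genes against 4 weeks and 355 genes against 1 year. Values below are the contrast at 14 weeks minus that at the other age, on the log2 scale, for genes named in the text and others of the largest at each age. No explanation was tested for any of them. Of these 27 contrasts, 22 lost the call under at least 1 alternative, and those of Acta2, C1qa, Eef1a1 and 0610040J01Rik against 4 weeks and Serpinh1 against 1 year kept it under all that were run.

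Against 4 weeks, Pstpip2 had -11.105, 0610040J01Rik -9.91, Pkdrej -8.77, Paqr9 -8.004 and Trim54 -7.301. In all 5 the fibroblasts of 14 weeks were at or near 0 counts, so that the size depends on the prior count of the fit. Without fibroblast replicate 4 of 14 weeks the adjusted p was 0.194 for Pstpip2, 0.257 for Pkdrej, 0.123 for Paqr9 and 0.225 for Trim54, and with the replicate block at 4 weeks it was 0.127 for Pkdrej and 0.0832 for Trim54. Pstpip2, for example, measured 2.23, 2.48 and 2.23 CPM in fibroblasts of 4 weeks and 0 in both of 14 weeks, against 13.3, 10.8 and 10.4 CPM and 19.8, 22.7 and 18.9 CPM in the hearts. Acta2 had 4.28, C1qa -3.41, Lyz2 -2.75, Kcnj8 1.88, Eef1a1 1.204, Rpl3 1.28 and mt-Co2 7.23. The hearts of 4 weeks were higher than those of 14 weeks in Acta2, and the fibroblasts of 4 weeks were higher in C1qa and Lyz2.

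Against 1 year, Retnla had 11.61, mt-Co2 9.79, Nppa 9.46 and Cd163 8.999, again with at least one fibroblast group at or near 0. Retnla measured 12.3, 15.5 and 166 CPM in the hearts of 1 year, so that 1 heart stood over 10-fold above the others. Its call was lost under 15 of 16 alternatives, and without fibroblast replicate 6 of 14 weeks it fell to 3.68 (adjusted p = 0.999894). The call of Nppa was lost in 9 fits without 1 sample (adjusted p up to 0.254) and those of Cd163 and mt-Co2 in 2 each. Nppa measured 226, 285 and 48.5 CPM in the same hearts and 0 in both fibroblast samples of 1 year. Tuba8 had -5.57, Egr2 -4.51, Serpinh1 -2.07, Col4a1 -1.83, Eef1a2 -1.705, Loxl1 -1.61, Jund -1.61, Fbn1 -1.36 and Col1a1 -1.296, all with a lower contrast at 14 weeks. Without fibroblast replicate 4 of 1 year, Tuba8 turned to 1.48 (adjusted p = 0.994). Lyz2 had 2.27 and Timp3 1.76. The fibroblasts of 1 year measured 4880 and 4091 CPM of Col4a1 and 571 and 738 CPM of Timp3, against 2625 and 2892 CPM and 1850 and 1564 CPM at 14 weeks, so these matrix genes differed in opposite directions.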

How the results depend on the processing

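The counts of genes that differed at 14 weeks stayed within 1.5 times of the values given under every alternative except scaling by library size alone, which gave 7112 higher and 3157 lower genes. Leaving out 1 sample gave 3541 to 4770 higher, 4348 to 4657 lower and 8013 to 9427 in all. Shares of counts kept their direction throughout, and without 1 sample their differences ran from 1.83 to 1.85 percentage points for fibrillar collagens, -8.50 to -8.45 for sarcomere genes, -27.3 to -24.0 for the mitochondrial genome, 4.09 to 4.39 for immediate early and heat shock genes and 0.103 to 0.150 for endothelial markers. For the contrast at 14 weeks, of 2131 comparisons of named genes with an alternative, direction and side of the threshold held in 2073, 34 lost the call, 8 gained it and 16 turned direction, all of the latter in genes that had not passed. Library size scaling turned Acta2 to 0.69 (adjusted p = 0.0182), Fabp4 to 0.67 (0.00415), Mki67 to 0.70, Col11a2 to 0.65, P4ha2 to 0.39 and Hsph1 to 0.025. Without 1 sample, Acta2 ran from -0.40 to 0.15, Col11a2 from -1.12 to 0.46, Fabp4 from -0.24 to 0.0027 and Mki67 from -0.23 to 0.11. In the fit of 27 samples Acta2 was 0.011 and Mki67 0.046, and 14 of 181 named genes lost the call (Cdh5, Flt1, Cldn5, Vwf, Notch3, Ptprc, Lamb3, Mmp9, Mmp13, Cpt1b, mt-Co2, mt-Co3, mt-Atp6 and mt-Nd4l).

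The counts for age are less stable. Against 4 weeks, library size scaling gave 228 higher, 36 lower and 264 in all, DESeq2 gave 341, 377 and 718, and a minimum of 10 counts gave 103 lower. Against 1 year, library size scaling gave 146, 53 and 199, DESeq2 gave 369, 627 and 996, samples of the 2 ages alone gave 647, 951 and 1598, and the minimum of 10 counts gave 150 higher. Leaving out 1 sample gave 28 to 151 higher, 13 to 85 lower and 41 to 230 in all against 4 weeks, and 22 to 74, 37 to 196 and 66 to 262 against 1 year. At 14 weeks the samples that mattered were fibroblast replicates 4 (41 and 66 genes) and 6 (46 and 110) and heart replicates 1 (78 and 172), 2 (66 against 4 weeks) and 3 (70 and 134). At 4 weeks they were heart replicate 3 (67) and fibroblast replicate 3 (230), and at 1 year fibroblast replicates 4 (82) and 5 (160) and the hearts (180, 156 and 225). Of 469 comparisons of the 27 contrasts named for age with an alternative, 321 held, 147 lost the call and 1 turned direction, that of Tuba8 against 1 year, which ran from -7.75 to 1.48 without 1 sample. The cause was not tested. At 4 weeks the 2 tissues share replicate numbers. Deviations of same-numbered samples had correlations of -0.042, 0.019 and 0.005, and the other pairings lay between -0.064 and 0.074. Such values cannot decide whether same-numbered samples of 4 weeks share an animal, since variation between samples can hide it. A replicate block there gave 147 genes, 88 higher and 59 lower, against 143 without it, and Pkdrej, Trim54 and mt-Co2 (adjusted p = 0.106) lost the call. No label ties a sample to an animal, and 2 fibroblast samples limit the precision of every value.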
